A study of Mus musculus with 165 samples.

Results

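The change in gene expression between 8h and 12h after OHT addition was measured in PUER cells kept in GCSF. The comparison used 6 libraries, 3 at 8h and 3 at 12h, where the series holds 81 in GCSF and 84 in IL3, and the samples were chosen by the condition and time in their labels. The PUER line lacks PU.1 of its own (*Spi1*-/-), is labelled as progenitors from bone marrow, with fetal liver as its origin in the study's text, and expresses a fusion of PU.1 with the part of the estrogen receptor that binds hormone, and 4-hydroxy-tamoxifen (OHT) activates the fusion protein. The cells of all 6 samples had been moved from IL3 into 10 ng/ml GCSF (granulocyte colony-stimulating factor) for 48 h before 100 nM OHT was given at 0h, and the cytokine and OHT stayed in the medium. For comparison, the 6 IL3 libraries of 8h and 12h came from the same line held in 5 ng/ml IL3 with 200 nM OHT and without the pre-treatment, so cytokine, OHT dose and pre-treatment cannot be told apart between the conditions. Each time point was grown in a plate of its own and cells without OHT were not sampled at 8h or 12h, so the effects of OHT, time in culture and plate cannot be told apart within GCSF.

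Glycolysis splits glucose into pyruvate and lactate, and neutrophils and their precursors are known for drawing much of their ATP from it. Hypoxia-inducible factor is a transcription factor whose alpha subunit is marked for destruction by prolyl hydroxylases while oxygen is plentiful, and it raises transcription of glycolysis enzymes and of other genes of low-oxygen life. PU.1 is an ETS-family transcription factor that binds purine-rich DNA, and myeloid cells need it for many of the receptors, adhesion molecules and oxidase subunits by which they are recognised.

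Reads counted on genes numbered 19754425, 28484894 and 22502974 in the 8h libraries and 25399356, 23913598 and 22605614 in the 12h libraries. At these depths 3 reads, used as the smallest count that stands above 0, equal 2.07 to 3.06 normalized counts, a floor for counting error only. All 15 neutrophil lineage markers were counted in each of the 6 libraries, led by *Elane*, the gene of neutrophil elastase, and their summed level was 456000.1 to 464878 normalized counts at 8h and 468679 to 484687 at 12h. Of 16 monocyte and macrophage markers, *C1qa*, *C1qb*, *C1qc* and *Ms4a7* were at 0 in all 6 libraries. The lists of T and NK cell, B cell, dendritic cell, and fibroblast and endothelial markers each summed to between 27.6 and 55.1 normalized counts in a library. The erythroid and megakaryocyte list summed to 657.6 to 817 (most of it *Vwf*), and the mast cell, basophil and eosinophil list to 534 to 640. The 8h libraries differed from one another by a chi-square per gene of 5.45 to 6.58, where 1 is counting error alone. At 12h replicates 1 and 2 differed by 3.82, and replicate 3 stood apart from them at 13.3 and 14.04.

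Of 17414 genes tested, 391 rose from 8h to 12h in GCSF (2.25%) and 74 fell (0.425%), where a call needed a log2 difference beyond 0.58 in either direction with an adjusted p under 0.05 in limma's moderated test on log2(normalized count + 1). The median log2 difference of all genes was 0.00. All 12h libraries lay above all 8h libraries in 278 of the 391 genes that rose, and all lay below in 67 of the 74 that fell, where 14.4% and 14.2% of all genes do so. Leaving out 12h replicate 3 gave 502 rises and 94 falls, leaving out 8h replicate 1 gave 449 and 63, and leaving out 12h replicate 2 gave 245 and 49. With a spread estimated from these 6 libraries alone, 112 genes rose and 48 fell, and 83 and 28 of them were among the 391 and the 74. The higher share of the calls went from 84.1% to 70.0% in that fit.

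**Figure D1:**
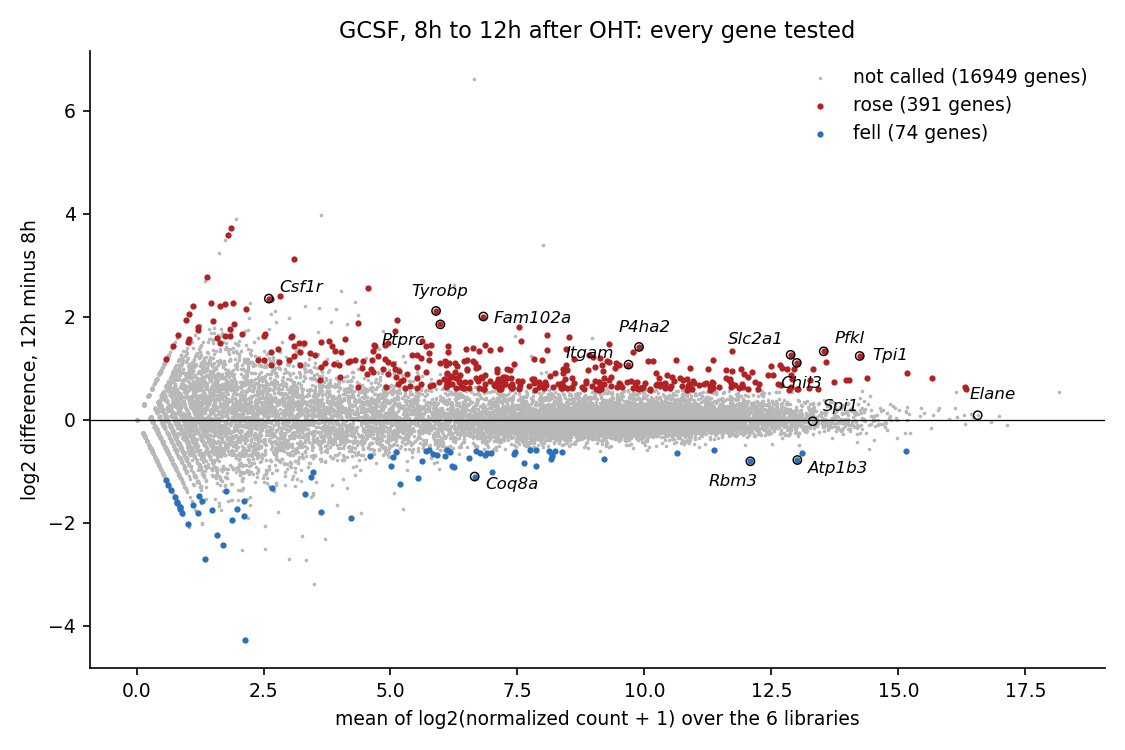
The log2 difference between 12h and 8h in GCSF (vertical) against the mean log2(normalized count + 1) of the 6 libraries (horizontal), 1 point per gene, with the 391 genes that rose in red, the 74 that fell in blue and circled genes named. *Pfkl* at 1.33 and *Tpi1* at 1.24 lie far above 0 among abundant genes, *Atp1b3* and *Rbm3* lie below it, and *Spi1* and *Elane* lie close to 0.

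Genes of glycolysis enzymes were higher at 12h. Of the 24 enzymes and transporters tested, 14 rose (58.3%) and none fell, and the median log2 difference of the 24 was 0.80. In 17 of the 24 all 12h libraries lay above all 8h libraries, where 14.4% of all genes do so. *Pfkl*, the liver-type subunit of phosphofructokinase, which commits sugar to glycolysis, had 9551, 6335 and 6837 normalized counts in the 8h libraries and 21787, 23368 and 12969 in the 12h libraries. Its 12h libraries were all above those of 8h (log2 difference 1.33, SE 0.12, adjusted p = 1.20e-15). *Slc2a1*, the glucose transporter GLUT1, had 7290.1, 3772 and 4163 at 8h and 14997, 15323 and 6899 at 12h (1.26, SE 0.16, adjusted p = 5.96e-10). The groups of *Slc2a1* overlapped, because 12h replicate 3 lay below 8h replicate 1.

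*Tpi1*, triosephosphate isomerase, went from 16105, 11548 and 10649.8 to 34694, 35760.4 and 21146 normalized counts (log2 difference 1.24, adjusted p = 1.33e-15). *Ldha*, the lactate dehydrogenase subunit that favours lactate formation, went from 10423, 7238 and 7375 to 21234, 21123 and 13041 (1.13, adjusted p = 9.77e-17). Neither gene had overlapping groups. The hexokinase genes *Hk1* and *Hk2* rose by 0.87 and 0.79, *Pfkp* by 0.99, the aldolase genes *Aldoa* and *Aldoc* by 0.91 and 0.87, the mutase gene *Pgam1* by 0.78, *Pgk1* and *Eno1* by 0.81 and 0.81, and *Gapdh* and *Pkm* by 0.64 and 0.59. The lactate exporters *Slc16a1* (0.11) and *Slc16a3* (0.10), *Ldhb* (0.16), and the genes of the bifunctional regulators of phosphofructokinase *Pfkfb3* (-0.15) and *Pfkfb4* (-0.03) did not pass the test. None of 40 respiratory chain genes was called by limma, edgeR or DESeq2, and the list had a median of -0.09. At an unadjusted p under 0.05, which 26.2% of all genes had, were 14 of the 40, and 13 of these were lower at 12h.

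Hypoxia response genes were also higher, with a wide spread between the replicates. Of 17 tested, 12 rose (70.6%) and none fell, with a median log2 difference of 0.77. *P4ha2*, a collagen prolyl hydroxylase subunit, had 886, 503 and 439 normalized counts at 8h and 2036, 2031 and 905 at 12h, and all 12h libraries were above all 8h libraries (1.42, SE 0.17, adjusted p = 2.16e-11). *Bnip3*, a mitophagy receptor, had 5999, 3129 and 3468 at 8h and 11496, 10645 and 4627 at 12h (1.04, SE 0.18, adjusted p = 2.73e-06), and its groups overlapped. *Ndrg1*, a stress-responsive gene, had 6553, 4169 and 3799.6 and 11549, 11648 and 6194 (1.00, adjusted p = 2.74e-10), with the same overlap of 12h replicate 3 and 8h replicate 1. *Adm*, the vasoactive peptide adrenomedullin, was scarce, with 43.9, 12.4 and 8.74 at 8h and 68.3, 59.1 and 27.6 at 12h (1.45, adjusted p = 0.0146).

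The oxygen-sensing prolyl hydroxylases *Egln1* and *Egln3* rose by 0.99 and 0.77, the carbonic anhydrase gene *Car9* by 0.91, the angiogenic factor *Vegfa* by 0.77, and *Pdk1*, which holds back entry of pyruvate into mitochondria, by 0.71. *P4ha1*, the partner of *P4ha2*, rose by 0.80, *Higd1a*, of the inner mitochondrial membrane, by 0.81, and *Ero1l*, an oxidase that helps form disulfide bonds in the endoplasmic reticulum, by 0.74. *Hif1a*, an alpha subunit of the factor, had 3888, 3877 and 4027 normalized counts at 8h and 3700.4, 3594 and 3529 at 12h, a log2 difference of -0.12 that was not called (adjusted p = 0.241). *Hif3a*, the gene of another alpha subunit, was called higher (0.60, adjusted p = 0.00907) and is named after its value was seen. In 3 of the 17 genes all 12h libraries lay above all 8h libraries, where 14.4% of all genes do so. In most of the list the times overlapped.

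In all 14 glycolysis genes and all 12 hypoxia genes that rose, 8h replicate 1 was the highest library of its time and 12h replicate 3 the lowest. The same held for 225 of the 391 genes that rose (57.5%), for 5 of the 74 that fell and for 16.0% of all genes tested. Without 8h replicate 1, 15 glycolysis and 14 hypoxia genes were called, and without 12h replicate 3 the counts were again 15 and 14. Leaving out any other library lowered them. They were 12 and 9 without 12h replicate 1, and 12 and 11 without 12h replicate 2 or without 8h replicate 2. Without 8h replicate 3 they were 13 and 11. In the fit of the 6 libraries alone none of either list was called by limma, with adjusted p of 0.0702 to 0.224 for the 14 and 0.119 to 0.277 for the 12, while 19 of the 24 and 7 of the 17 had an unadjusted p under 0.05, as 24.9% of all genes did in that fit. By edgeR and by DESeq2, each fitted to 60 libraries, 14 and 12 were called. The calls in both lists thus rest on a spread shared with other time points. No value of oxygen or of medium accompanies these libraries, and the part of plate or well in the difference was not tested.

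**Figure D2:**
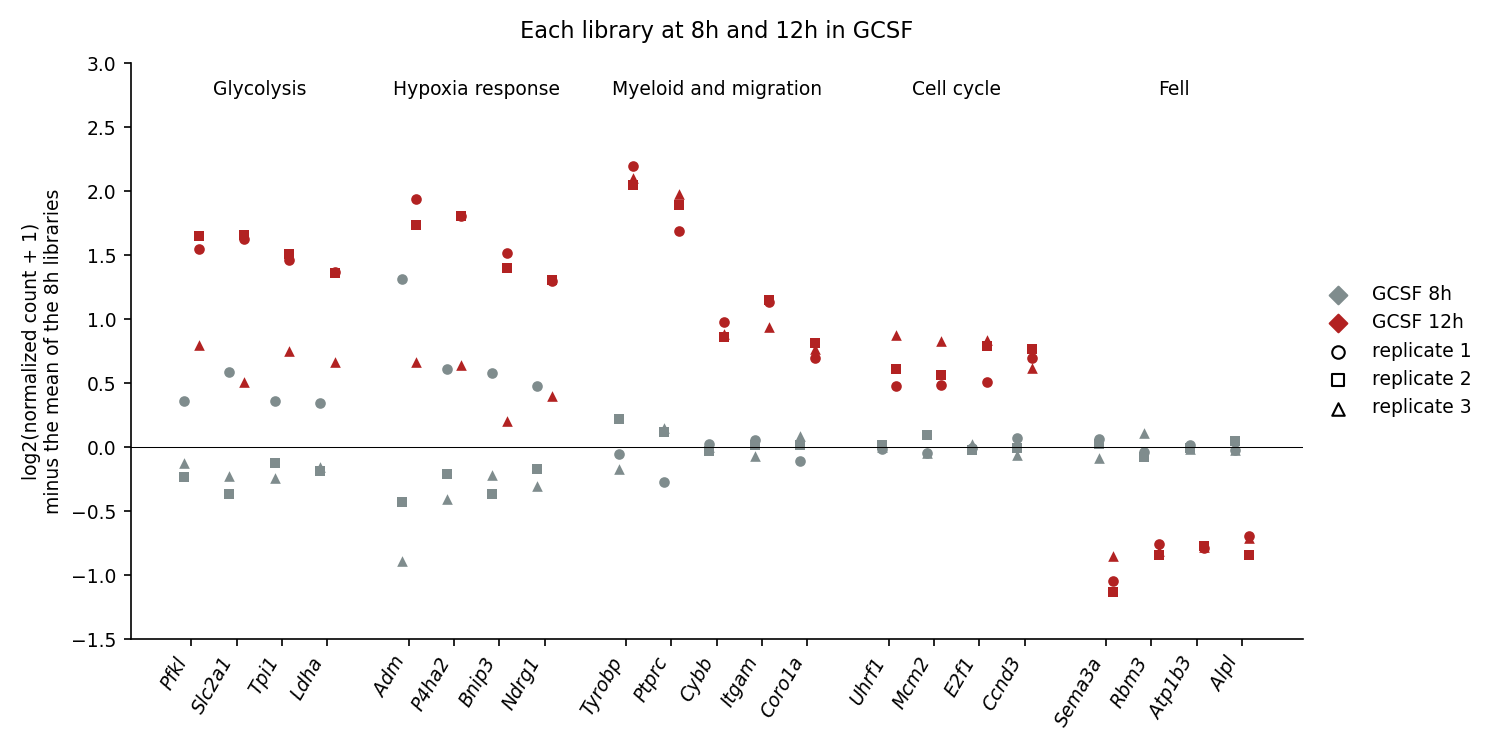
Each library of 8h (grey) and 12h (red) in GCSF as log2(normalized count + 1) minus the mean of the 8h libraries (vertical), for named genes grouped by function (horizontal), with the replicate number as the symbol. Glycolysis and hypoxia genes show 12h replicate 3 well below the other 12h libraries and 8h replicate 1 above its own group, while the plotted myeloid genes and the plotted genes that fell form separate groups. Separate groups were a condition for naming *Tyrobp*, *Ptprc* and the genes that fell.

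The DNA before the start sites of some of these genes is shown because the hypoxia-inducible factor is known to bind ACGTG or GCGTG, and PU.1 around GAGGAA. The lists were drawn up by known function, so their shares of matches are no test of either factor in these cells. Sequences are the 250 bases before the start in RefSeq's annotation of GRCm38.p6, on the gene's strand, for genes of the text with a single start in that table, with matches on either strand in capitals. CACGTG holds ACGTG on both strands and counts as a match on each.
*Pfkl* (chr10:78009808-78010057, minus strand): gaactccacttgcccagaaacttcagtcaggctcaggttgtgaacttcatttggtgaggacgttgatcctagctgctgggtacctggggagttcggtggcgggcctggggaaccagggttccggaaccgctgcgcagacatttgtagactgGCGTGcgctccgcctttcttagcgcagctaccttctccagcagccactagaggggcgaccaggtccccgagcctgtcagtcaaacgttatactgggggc
*P4ha2* (chr11:54100674-54100923, plus strand): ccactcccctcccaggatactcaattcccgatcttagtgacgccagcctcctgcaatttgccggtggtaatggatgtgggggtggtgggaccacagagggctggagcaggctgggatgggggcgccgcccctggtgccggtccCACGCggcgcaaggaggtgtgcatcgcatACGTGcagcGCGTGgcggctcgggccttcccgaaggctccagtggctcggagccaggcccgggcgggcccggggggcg
*Bnip3* (chr7:138909507-138909756, minus strand): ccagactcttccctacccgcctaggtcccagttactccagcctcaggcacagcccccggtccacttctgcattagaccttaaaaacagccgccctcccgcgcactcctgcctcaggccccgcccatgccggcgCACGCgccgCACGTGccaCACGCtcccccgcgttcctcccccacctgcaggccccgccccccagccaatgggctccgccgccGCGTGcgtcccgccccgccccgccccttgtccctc
*Itgam* (chr7:128062390-128062639, plus strand): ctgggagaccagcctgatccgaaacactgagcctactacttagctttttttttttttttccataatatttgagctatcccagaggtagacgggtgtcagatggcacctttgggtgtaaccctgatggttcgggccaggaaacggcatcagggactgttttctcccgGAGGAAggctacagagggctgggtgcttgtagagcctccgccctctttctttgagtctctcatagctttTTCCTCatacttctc
The 14 glycolysis genes that rose all matched the table by symbol, with 22 starts, and 18 of these (81.8%) held ACGTG or GCGTG. Of the 12 hypoxia genes that rose, 10 matched with 12 starts, and 10 starts (83.3%) held a match. In the whole lists, of which 23 of 24 and 14 of 17 genes matched, 28 of 35 glycolysis starts (80.0%) and 15 of 20 hypoxia starts (75%) did. Among all 14706 starts of the genes tested 52.0% held one. Among the 362 starts of the genes that rose 49.2% did, and among the 60 starts of the genes that fell 31.7% did. GAGGAA stood before 24.3% of the starts of the genes that rose and 22.7% of those of all genes tested. Letters that match are a description of the sequence and were not measured as binding.

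*Tyrobp*, *Ptprc*, *Sla* and *Gpr82* were among the 12 largest rises of genes with at least 100 normalized counts at 12h and no overlap between the times, and are given together, a choice made after their values were seen, because the other 8 followed the library order of the glycolysis genes and they did not. *Tyrobp* (ENSMUSG00000030579, chromosome 7 from 30413760 to 30417585 of GRCm38), the adaptor DAP12 that couples myeloid receptors to tyrosine kinases, had 26.5, 32.4 and 24.5 normalized counts at 8h and 130.1, 117.3 and 122.1 at 12h. It had the largest rise of the 12 (2.12, SE 0.30, adjusted p = 1.36e-08). *Ptprc* (ENSMUSG00000026395, chromosome 1 from 138062861 to 138175708), the leukocyte phosphatase CD45, went from 26.5, 35.2 and 35.8 to 106.2, 122.6 and 130.1 (1.85, SE 0.25, adjusted p = 2.61e-09). *Sla*, an adaptor that dampens receptor signalling, went from 58.2, 62.1 and 79.5 to 167.1, 158.7 and 180.003 (1.34), and the orphan receptor gene *Gpr82* from 46.96, 63.4 and 55.1 to 142.4, 154.3 and 134.6 (1.37). That none of these groups overlapped was a condition of their choice. All 4 genes were called in the fit of the 6 libraries alone.

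The other genes among the 12 largest rises were *Fam102a* (2.01), *Rgs11* (1.65), *Mgarp* (1.61), *P4ha2*, *Scrt1* (1.40), *Rhobtb1* (1.38), *Rhbdl3* (1.35) and *Apln* (1.35). *Fam102a* had 73.5, 51.7 and 45.4 normalized counts at 8h and 283, 232 and 178 at 12h. *Rhbdl3*, of the rhomboid protease family, had 79.6, 78.6 and 71.7 and 197.6, 200.1 and 194. *Apln*, the gene of the peptide apelin, had 3193, 1729.9 and 1715 and 6731, 6959 and 3330.1. All 8 of these genes had their lowest 12h value in replicate 3 and their highest 8h value in replicate 1.

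*Itgam*, the integrin CD11b of neutrophils and macrophages, went from 589, 572 and 538 to 1241, 1259.9 and 1086 normalized counts (1.07, SE 0.06, adjusted p = 1.68e-29), the only rise among 15 integrins and selectin ligands tested. *Cybb*, the catalytic gp91 subunit of the phagocyte oxidase, went from 222, 213.7 and 218 to 431, 398 and 403 (0.91, SE 0.21, adjusted p = 6.83e-04), the only rise among 6 subunits. *Coro1a*, which organises actin in leukocytes, went from 609, 665 and 700.0 to 1064, 1155 and 1122 (0.76, adjusted p = 1.53e-08). All 3 genes had separate groups, and 2.25% of all genes rose. *Chil3*, the chitinase-like protein Ym1, was far more abundant and went from 5580.1, 5823 and 5328 to 12393, 11346 and 12331 (1.11, SE 0.08, adjusted p = 1.13e-21), and with *Mmp9* (0.65) it made 2 rises among 14 secondary and tertiary granule genes.

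Of the 11 monocyte and macrophage markers tested, 5 rose (45.5%), with a list median of 0.50. *Adgre1*, the macrophage antigen F4/80, had 102.1, 102.04 and 109.2 normalized counts at 8h and 175.3, 155.2 and 187.1 at 12h (0.72, adjusted p = 0.0338). *Ccr2*, the chemokine receptor of inflammatory monocytes, had 757, 723 and 866 and 1202, 1099 and 1315 (0.62, adjusted p = 8.14e-04), and *F13a1*, a coagulation factor subunit, had 1626, 1282 and 1171 and 2452, 2293 and 1744 (0.67). *Csf1r*, the receptor for macrophage colony-stimulating factor, and *Mmp12*, a macrophage elastase, were near the floor, with 1.02, 4.14 and 0.874 and 0, 1.38 and 1.75 at 8h and 15.6, 11.5 and 11.6 and 4.12, 5.29 and 3.56 at 12h. With any of the 6 libraries left out, 3 of the 11 were called, and 2 were in the fit of the 6 libraries alone. *Ly6c2* (0.01), *Cd68* (0.25) and *Gpnmb* (-0.02) did not pass the test, and the complement genes were at 0 at both times. In bulk RNA more cells of a kind and more RNA per cell cannot be told apart.

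Neutrophil lineage markers gave 1 call among 15, where 2.25% of all genes rose, with a list median of 0.11. *Cxcr2*, the receptor for neutrophil-attracting chemokines, rose, from 221, 199.95 and 210.6 to 369.6, 401 and 262 (0.69, adjusted p = 5.68e-09). *Csf3r*, the GCSF receptor, had 5253, 5344 and 4787 normalized counts at 8h and 6115, 6107 and 6311 at 12h, a log2 difference of 0.27 with an interval (95%) of 0.14 to 0.40. *Mpo*, myeloperoxidase, differed by 0.35, *Prtn3* by 0.23, *S100a8* by -0.08 and *Cebpe*, a late granulocyte transcription factor, by 0.11. *Spi1*, whose reads cannot be assigned to the fusion or to the disrupted gene, had 10363, 10295 and 10138 at 8h and 9534, 10188 and 10558 at 12h and was not called (-0.03, interval -0.12 to 0.07, adjusted p = 0.813).

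Signalling genes rose in small numbers, given here beside the 2.25% of all genes that rose. *Bcl3*, an NF-kB regulator and STAT target, went from 452, 376 and 369 to 636, 742 and 651 (0.76, adjusted p = 6.04e-05), and *Socs1*, which blocks cytokine receptor kinases, from 21.4, 24.8 and 22.7 to 33.8, 43.2 and 33.0 (0.64, adjusted p = 0.00545). These were 2 of 11 STAT target genes tested, and neither had overlapping groups. *Spred2*, an inhibitor of the ERK pathway, went from 333, 296 and 239 to 509, 537 and 467 (0.81, adjusted p = 1.90e-12), and the ERK phosphatase gene *Dusp4* from 41.9, 27.6 and 40.2 to 55.2, 73.2 and 43.7 (0.63). The 12h libraries were above the 8h libraries in both, by little in *Dusp4*. Of 20 immediate-early genes *Fosl1* (1.15), an AP-1 subunit, and *Ier3* (0.65) rose. *Fosl1* ran from 1302, 552 and 644 at 8h to 2344, 2415 and 896 at 12h and its groups overlapped. *Itpr3*, a calcium channel of the endoplasmic reticulum, had 9.19, 8.96 and 8.74 and 28.8, 29.98 and 27.6 (1.58, adjusted p = 1.24e-08). *Fpr2*, a formyl peptide receptor, was near the floor, at 3.06, 3.45 and 0.874 and 8.23, 9.70 and 9.80, so with *Cxcr2* and *Ccr2* 3 of 14 chemoattractant receptors rose. *Il1r2*, a decoy receptor for interleukin-1, rose by 0.62 and made, with *Csf1r*, 2 rises among 19 cytokine receptors.

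Several lists held 1 or 2 rises, where 2.25% of all genes rose, so the genes are given singly and not as results about their lists. *Anxa2*, an annexin that links membranes to actin, went from 8851, 7504 and 7041 to 13288, 13525 and 9621 normalized counts (0.63, adjusted p = 3.30e-11), 1 of 12 S100 and annexin genes. *Klf2*, a zinc-finger factor that quiets leukocytes, went from 666, 637 and 529 to 971, 1107 and 777 (0.63, adjusted p = 7.05e-04), 1 of 27 myeloid transcription factors. *Mt1*, a metallothionein that binds zinc and copper, went from 3028, 2474 and 2053 to 4799, 4728 and 3361 (0.77, adjusted p = 2.50e-08), 1 of 12 genes of these metals. All 3 had separate groups, and in all 3 the library order was that of the glycolysis genes. *Gsn*, the actin-severing protein gelsolin, had 3236, 2601 and 2498 at 8h and 4849.6, 5249 and 3441 at 12h (0.69) and with *Coro1a* made 2 of 21 actin and migration genes. The inducible chaperone gene *Hspa1a* had 135.8, 132 and 186.1 and 186.9, 277 and 226 (0.60, adjusted p = 0.0487), 1 of 21 heat shock genes. Its groups were barely apart, with 186.1 at 8h just below 186.9 at 12h.

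*Ddit4* and *Eif4ebp1* also followed the library order of the glycolysis genes, as did *Anxa2*, *Klf2*, *Mt1* and *Gsn* above. So did 57.5% of all genes that rose. *Ddit4*, the mTORC1 inhibitor REDD1, had 7236, 5346 and 5664 at 8h and 11509, 11801 and 6179 at 12h (0.65, adjusted p = 0.00209), the only rise among 26 genes of the ATF4 amino acid response. *Eif4ebp1*, which holds back the cap-binding factor, had 2275, 1682 and 1693 and 3639, 3599 and 2169.8 (0.71, adjusted p = 1.68e-08), 1 of 27 translation factors. In both 12h replicate 3 overlapped 8h replicate 1. Of all genes 2.25% rose, so single rises say little about these lists.

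The falls were fewer than the rises. *Atp1b3*, a subunit of the sodium-potassium pump, had 10939, 10752 and 10706 normalized counts at 8h and 6263, 6327 and 6297 at 12h (-0.78, SE 0.06, adjusted p = 3.74e-21). *Rbm3*, a cold-inducible RNA-binding protein, had 5586, 5453 and 6199 and 3396, 3201 and 3271 (-0.80, SE 0.06, adjusted p = 3.74e-21). *Sema3a*, a guidance ligand, went from 188, 182 and 168.7 to 86.4, 81.1 and 98.9 (-1.01, adjusted p = 4.03e-04). No groups overlapped in these 3 genes, which was a condition of the rule that named them. The alkaline phosphatase gene *Alpl* fell by 0.75 on the log2 scale, the death receptor gene *Fas* by 0.70 and the recycling endosome gene *Rab11fip2* by 0.90.

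*Coq8a*, which serves coenzyme Q synthesis, had the largest of the 12 largest falls of genes with at least 100 normalized counts at 8h and no overlap between the times, from 128.6, 166 and 148 to 51.04, 56.4 and 108.7 (-1.10, adjusted p = 1.02e-04), and 12h replicate 3 lay closest to 8h. *Castor2*, of the arginine-sensing family that acts on mTORC1, showed the same, from 334, 316 and 301 to 130.1, 151 and 252 (-0.89). *Nwd1* and *Zfp945* were also among the 12 largest falls, at -0.83 and -0.69. *Slc7a11*, the cystine importer that feeds glutathione synthesis, fell from 102.1, 88.3 and 124 to 73.3, 55.5 and 40.1 (-0.91, adjusted p = 8.59e-04), and *Nqo1*, another NRF2 target, from 155.2, 153.1 and 162 to 102.9, 89.9 and 108.7 (-0.64, adjusted p = 0.00216). *Hmox1*, heme oxygenase, rose from 1347, 1025 and 1032 to 2452, 2284 and 1415 (0.83), so 2 of the 19 glutathione and NRF2 genes fell and 1 rose. Of all genes 0.425% fell and 2.25% rose. Of 16 chemokines and cytokines tested *Ccl4* fell from 296, 288 and 277 to 204.98, 194 and 172.9 (-0.59, adjusted p = 7.74e-04), and *Cxcl10* from 15.3, 14.5 and 14.9 to 8.23, 2.65 and 10.7 (-1.12, adjusted p = 0.0358) at low counts.

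Genes of DNA replication were mostly higher and genes of mitosis mostly lower at 12h, by small amounts. Of 38 DNA replication genes, 37 were higher at 12h and 27 had all 12h libraries above all 8h libraries, where 14.4% of all genes do so, with a list median of 0.27. *Uhrf1*, which brings DNA methylation to new strands, went from 1989, 2033 and 2009 to 2806, 3075 and 3683 (0.66, adjusted p = 2.34e-15), and *Mcm2*, of the replicative helicase, from 2027, 2238 and 2033 to 2935, 3096 and 3726 (0.62, adjusted p = 5.18e-11). These 2 passed the fold threshold, and 25 of the 38 passed the adjusted p alone, as 9.71% of all genes did in the upward direction. Replicate 3 was the highest 12h library of *Uhrf1* and *Mcm2*, and without it neither was called.

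*E2f1*, the S-phase transcription factor, went from 696, 691 and 713 to 995, 1211 and 1248 (0.71), and *Ccnd3*, the cyclin D3 of myeloid cells, from 4009, 3797 and 3661 to 6196, 6486 and 5866 (0.69). These were 2 of 22 genes on the list of G1 cyclins and CDK inhibitors, where 2.25% of all genes rose. Of 30 mitosis genes, 28 were lower at 12h, with a list median of -0.20. None of the 30 passed both thresholds by limma, edgeR or DESeq2, while 17 were lower at an adjusted p under 0.05, as 5.87% of all genes were. At an unadjusted p under 0.05, 21 were lower, where 26.2% of all genes passed in either direction. The mean log2 level of the replication list, relative to GCSF 0h, was -0.25 at 4h, -0.70 at 8h, -0.41 at 12h and -0.28 at 16h. The mitosis list stood at -0.12, -0.27, -0.47 and -0.43 at these times.

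**Figure D3:**
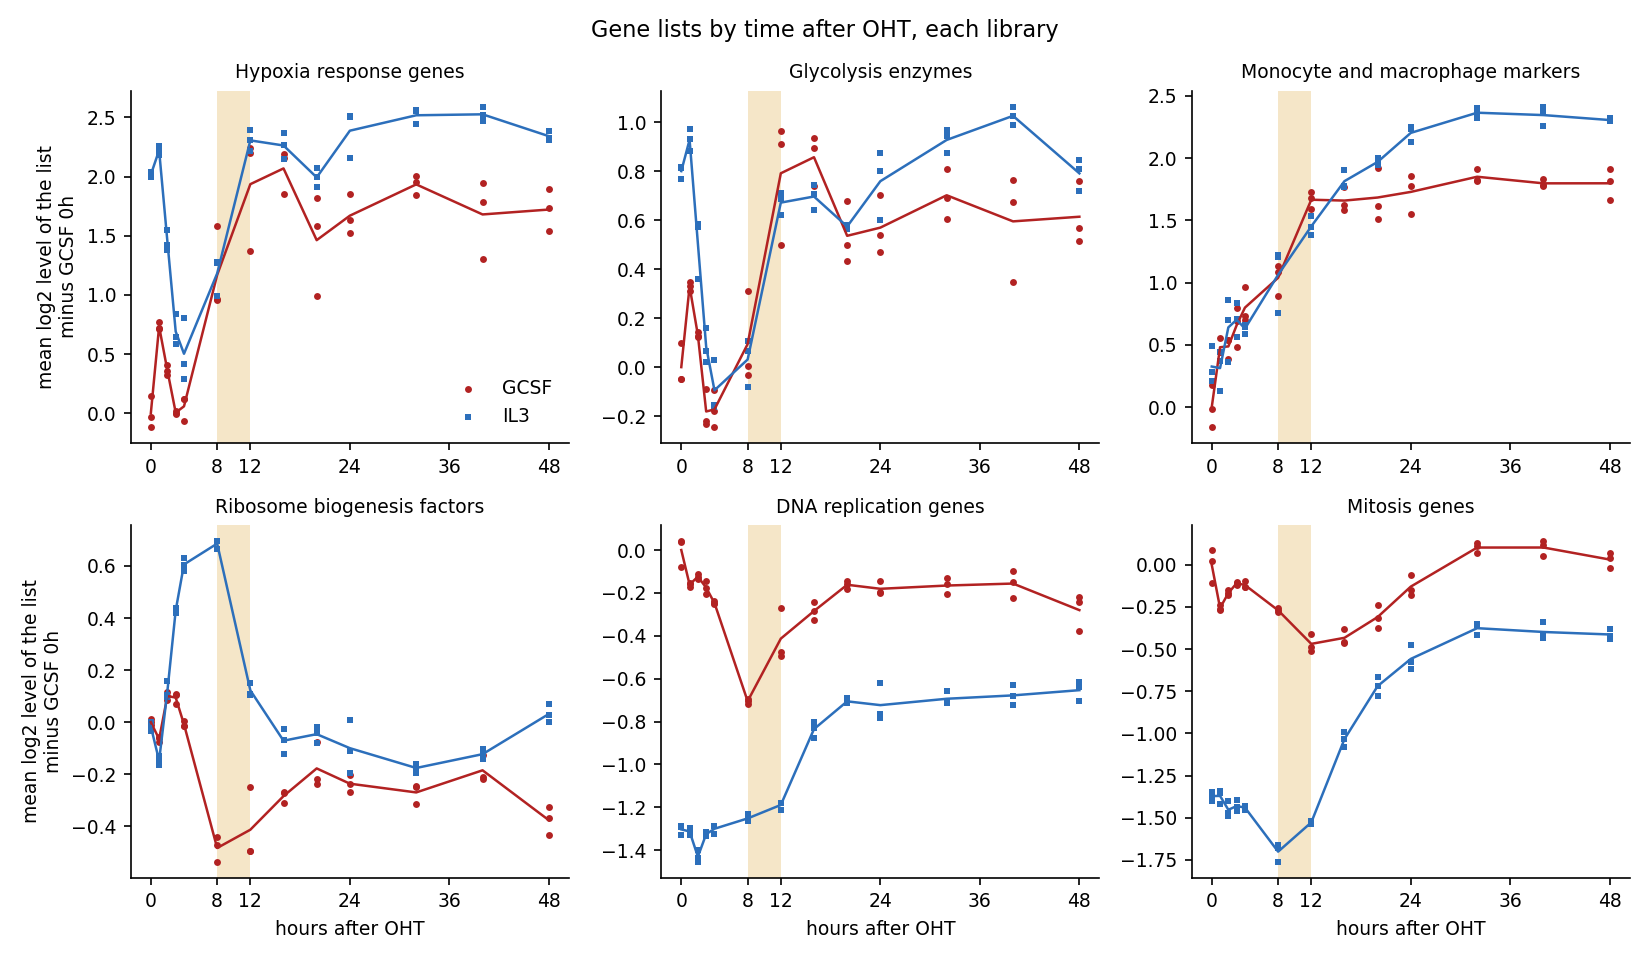
Mean log2(normalized count + 1) over the tested members of 6 gene lists minus the mean at GCSF 0h (vertical) against hours after OHT (horizontal), in GCSF (red) and IL3 (blue, whose 0h is the undifferentiated cells), with 1 point per library, lines through the means and the step shaded. In GCSF the hypoxia list goes from 1.17 at 8h to 1.94 at 12h with wide spread, and the replication list turns upward from its 8h low.

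Circadian clock genes gave 4 rises among 19 (21.1%), where 2.25% of all genes rose. The repressor genes *Per1* (0.84), *Ciart* (0.84), *Bhlhe40* (0.77) and *Bhlhe41* (0.61) rose. *Per1* had 645, 419 and 413 normalized counts at 8h and 1026, 1044 and 603 at 12h, and all 4 followed the library order of the glycolysis genes. Without 8h replicate 1, and likewise without 12h replicate 3, 6 clock genes rose. Without 12h replicate 1, 12h replicate 2 or 8h replicate 2 the count was 3, and without 8h replicate 3 it was 4. In the fit of the 6 libraries alone none of the 4 rises was called. The core factors *Clock* (-0.14) and *Arntl* (0.17) did not pass the test.

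Of the 60 lists examined, 31 held no called gene by limma, 584 genes in all. In these lists 235 of the 584 genes had an unadjusted p under 0.05, a higher share than the 26.2% of all genes. Of the 584, edgeR called 1 (*Cd36*, named after its value was seen) and DESeq2 called 0. The list medians ran from -0.20 to 0.31. Among them were the cytosolic and the mitochondrial ribosomal proteins (medians -0.05 and -0.06), the proteasome (-0.13), the citric acid cycle (-0.07), cholesterol synthesis (0.04) and the interferon-stimulated genes (0.25).

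Libraries that the comparison did not use were read at 4h and 16h. Between 4h and 16h in GCSF 1093 genes were higher (6.28%) and 467 lower (2.68%). Of the 391 genes that rose from 8h to 12h, 281 were called higher at 16h than at 4h (71.9% of the 391, 25.7% of the 1093) and 1 was lower, the predicted gene *Gm9361*, named after its value was seen. Of the 74 that fell, 31 were called lower (41.9% of the 74, 6.64% of the 467). In this comparison 16 of 24 glycolysis genes and 16 of 17 hypoxia genes were higher.

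*Pfkl* had 3338 ± 138.9 normalized counts (SD, n = 3) at 4h and 17829.7 ± 2232 at 16h (log2 difference 2.41), and *Bnip3* had 554 ± 37.02 and 8537 ± 1249.8 (3.93). *Tyrobp* had 5.87 ± 3.50 at 4h and 139.4 ± 39.6 at 16h (4.49), and *Ptprc* 2.24 ± 0.467 and 144.3 ± 28.5 (5.48). At 4h, where 3 reads equal 2.77 to 3.14 normalized counts, the mean of *Ptprc* lay below that floor and that of *Tyrobp* near it. The log2 differences of both genes are therefore imprecise. *Atp1b3* had 15685 ± 332 and 5386 ± 423 (-1.54). The 12h values of all 5 lay between those of 4h and 16h or close to those of 16h. *Mcm2* and *Uhrf1* were not called between 4h and 16h, with log2 differences of -0.04 and 0.17. The neighbouring steps share libraries with this one and are given as counts only. From 4h to 8h 550 genes rose (3.16%) and 371 fell (2.13%), and from 12h to 16h 40 rose (0.23%) and 24 fell (0.138%), or 3 and 19 with the spread of those 6 libraries alone.

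The same hours in IL3 were set beside the step with a test of the difference of the differences. In IL3 663 genes rose from 8h to 12h (3.81%) and 436 fell (2.5%). Of the 391 genes that rose in GCSF 190 also rose in IL3 (48.6% of the 391, 28.7% of the 663), and 5 fell there, which were *Plxdc1*, *Dctd*, *Apc2*, *Shmt1* and *Slc29a1*. Of the 74 that fell 13 also fell in IL3 (17.6% of the 74, 2.98% of the 436). The change in GCSF was called higher than that in IL3 for 509 genes (2.92%) and lower for 319 (1.83%), and among the 391 it was higher for 71, lower for 18 and not called different for 302.

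**Figure D4:**
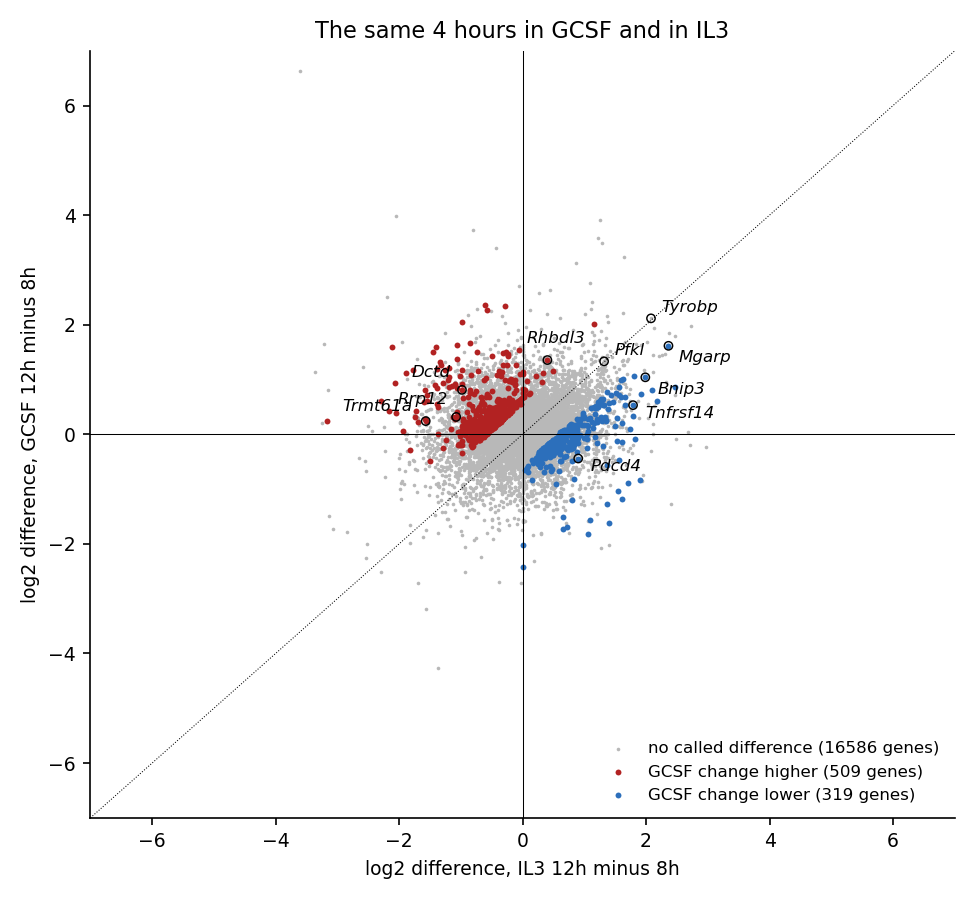
The log2 difference between 12h and 8h in GCSF (vertical) against that in IL3 (horizontal), 1 point per gene, with equal change on the dotted line. Red and blue mark the 509 and 319 genes whose change in GCSF was called higher or lower than in IL3, and *Tyrobp* and *Pfkl* lie on the line.

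*Tyrobp* also rose in IL3, by 2.08, and GCSF minus IL3 was 0.04 with an interval (95%) of -0.80 to 0.87. *Pfkl* rose by 1.32 in IL3, and GCSF minus IL3 was 0.01 with an interval (95%) of -0.34 to 0.36. Glycolysis genes gave 16 rises and 1 fall in IL3 with a median of 0.73, and the change in GCSF was called lower for 1 (*Pfkfb4*, -0.69) and for no other. Hypoxia genes gave 15 rises in IL3 with a median of 1.28, and the change in GCSF was called lower for 5 of 17, where 1.83% of all genes were lower. *Bnip3* had 2172, 2985 and 3405 normalized counts at 8h and 11642, 10329.8 and 11466 at 12h in IL3 (1.99), and GCSF minus IL3 was -0.95 (SE 0.25, adjusted p = 0.00316). The others were *Mxi1* (-1.10), *Bnip3l* (-0.78), *Ndrg1* (-0.62) and *Egln3* (-0.59). The IL3 libraries of *Bnip3* did not overlap between the times, whereas those of GCSF did. Without GCSF 12h replicate 3 the difference was -0.53 for *Bnip3*, -0.32 for *Ndrg1*, -0.26 for *Egln3* and -0.56 for *Bnip3l*, and *Mxi1* (-0.92) alone of the 17 was called. Without GCSF 8h replicate 1 it was -0.66 for *Bnip3* and 2 of the 17 were called, without IL3 8h replicate 1 or IL3 12h replicate 1 it was 3, and with the spread of the 4 groups alone *Mxi1* was the 1 called. By edgeR and by DESeq2 4 were called.

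Genes of ribosome biogenesis changed differently in the conditions. In GCSF none of its 50 genes was called from 8h to 12h by limma, edgeR or DESeq2, and the median was 0.08. An unadjusted p under 0.05, which 26.2% of all genes had, was found for 21 of the 50, and 19 of these were higher at 12h. In IL3 23 fell (where 2.5% of all genes fell) and the median was -0.55, and the change in GCSF was called higher for 30 of the 50, or for 26 to 32 with a library left out, where 2.92% of all genes were higher. *Rrp12*, which helps export ribosome subunits, had 547, 519 and 534 normalized counts at 8h and 594, 649 and 761 at 12h in GCSF, and 2336, 2314 and 2335 and 1079, 1081 and 1156 in IL3. Its 12h libraries were below those of 8h in IL3 and slightly above them in GCSF, where the gene was not called (0.32), and GCSF minus IL3 was 1.39 (SE 0.11, adjusted p = 2.57e-20). The mean log2 level of the list relative to GCSF 0h was -0.01 at 4h, -0.48 at 8h and -0.41 at 12h in GCSF, and 0.61, 0.69 and 0.12 in IL3, and 12h replicate 3 was the highest GCSF library of 12h at -0.25.

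*Srm*, spermidine synthase, had 818, 1029 and 922 at 8h and 1139, 1321 and 1622 at 12h in GCSF, and 5029, 5135 and 4967 and 2886, 2764 and 2638 in IL3 (difference 1.42, adjusted p = 1.75e-12). *Trmt61a*, a tRNA methyltransferase subunit, had 219, 227 and 263 and 231, 268 and 350.2 in GCSF and 1402, 1471 and 1311 and 449.8, 478 and 479 in IL3 (difference 1.81, adjusted p = 2.42e-15). Every IL3 library of 8h was above every GCSF library in these 3 genes. Of 27 genes of one-carbon and nucleotide synthesis, 2 rose in GCSF, where 2.25% of all genes rose. In IL3 6 of the 27 fell, where 2.5% of all genes fell. The change in GCSF was called higher for 10 of the 27, where 2.92% of all genes were higher. *Shmt1*, a serine hydroxymethyltransferase, had 402, 421 and 468 at 8h and 631, 578 and 769 at 12h in GCSF and 879.7, 921 and 855 and 529, 586 and 578 in IL3, so that it rose in GCSF and fell in IL3 (difference 1.26, adjusted p = 1.45e-15). *Dctd*, a deaminase that supplies thymidine synthesis, did likewise (difference 1.79). *Mthfd1l*, of mitochondrial formate production, rose in GCSF from 2350.1, 1569 and 1460.2 to 4625, 4579 and 2816 (1.16) and differed by 0.49 in IL3, which was not called.

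**Figure D5:**
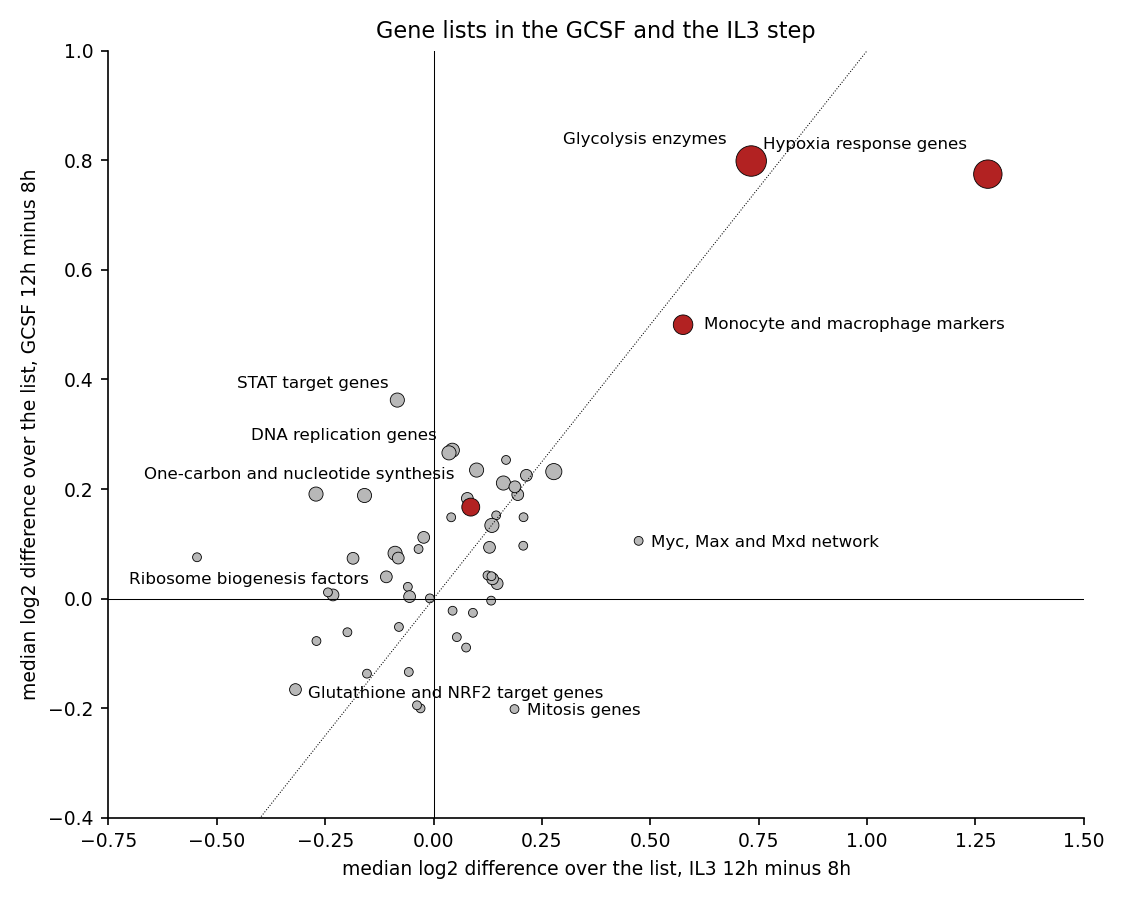
The median log2 difference between 12h and 8h over the tested members of each of 54 gene lists in GCSF (vertical) and in IL3 (horizontal), with equal change on the dotted line, point area growing with the number of members that rose in GCSF, and lists with at least 4 such members in red. Glycolysis stands at 0.80 and 0.73, hypoxia response at 0.77 and 1.28, and ribosome biogenesis at 0.08 and -0.55.

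The change in GCSF was lower than in IL3 for *Pdcd4*, an inhibitor of translation, with 1960.1, 1932 and 2050.1 normalized counts at 8h and 1567, 1376 and 1434 at 12h in GCSF and 445, 368 and 370.3 and 759, 715 and 731 in IL3 (difference -1.34, adjusted p = 2.57e-20). *Tnfrsf14*, the receptor HVEM, had 616 ± 21.4 at 8h and 892 ± 53.9 at 12h in GCSF (SD, n = 3), which was not called, and 130.8 ± 5.07 and 454 ± 17.6 in IL3 (difference -1.26). *Ccng2*, a cyclin of resting cells, differed by -1.23, *Ypel2* by -1.22 and *Pgbd1* by -1.30. Of the 38 replication genes 1 rose in IL3. *Mcm2* had 1684, 1713 and 1659 and 1647, 1681 and 1598 in IL3 (difference 0.66, adjusted p = 3.72e-07), and the change in GCSF was called higher for 4 of the list, or for 1 without GCSF 12h replicate 3, when *Mcm2* (0.56) and *Uhrf1* (0.56) were not called. Among the feedback genes *Spred2* (0.92, adjusted p = 5.24e-09), *Dusp4* (0.99) and *Socs1* (1.04, adjusted p = 9.04e-04) changed upward in GCSF relative to IL3.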

How the data were processed

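PolyA-selected RNA of 165 PUER samples was sequenced in pairs. Each well gave 1 sample and 3 wells were sequenced per time (2 at GCSF 96h, 112h and 152h), so replicates are separate cultures of the same line. Per the labels and the study's methods, the authors quantified reads with Salmon against GRCm38 and scaled them with DESeq2's size factors. Versions are not given in the sources used here. The deposited table of normalized counts (signal) was used as deposited, and each value above 0 was a whole multiple of what 1 read is worth (100% of values within 1e-06), so reads per library were recovered.

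Genes with at least 5 normalized counts in at least 1 library (17414 of 36255) were tested with limma 3.58.1 (R 4.3.3; a mean per group, trended prior with 8.12 degrees of freedom) on log2(normalized count + 1) over 159 libraries, all but IL3 96h and 144h. Such log2 differences understate the change of low genes. P-values were adjusted by Benjamini-Hochberg over all genes tested, and calls had an adjusted p under 0.05 with a log2 difference beyond 0.58 either way. edgeR 4.0.16 (quasi-likelihood) and DESeq2 1.42.0 were run on the recovered reads of the 60 libraries up to 24h. The scripts were checked on simulated data.

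Genes named were the 12 largest rises and 12 largest falls with at least 100 normalized counts in the higher group and no overlap between the times, predicted gene models left out. Up to 4 called genes of each list, *Spi1* and the 6 largest differences from IL3 in each direction, with at least 100 normalized counts in the highest of the 4 groups, were added. Other list members named did not follow this rule and were chosen after their values were seen. The samples, gene lists and tests were chosen with earlier results of these data known. Alternatives were other tools, scalings, filters, pseudocounts (0.5 and 5), the replicate number as a block, the 2 groups alone and leaving out each library. Some genes that these rules name are not reported here.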

Additional observations from a re-analysis of the deposited data

Results flagged for a closer look

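The difference between the changes from 8h to 12h in GCSF and in IL3, tested in limma as an interaction, passed the thresholds for the difference itself for 34 of the genes named here, and their values are on the log2 scale, GCSF minus IL3. Among rises in GCSF the difference was 0.85 for *Fam102a*, 0.95 for *Rhbdl3*, 0.92 for *Spred2*, 0.99 for *Dusp4*, 1.04 for *Socs1*, 0.66 for *Cxcr2*, 0.82 for *Hmox1*, 0.66 for *Mthfd1l* and 1.26 for *Shmt1*. It was 2.97 for *Csf1r*, whose counts at 8h lie at or near the floor. For the cell cycle it was 0.69 for *E2f1*, 0.67 for *Uhrf1* and 0.66 for *Mcm2*. The difference was negative for the rises of *Mgarp* (-0.75), *Bnip3* (-0.95), *Ndrg1* (-0.62) and *Ddit4* (-0.62), for the hypoxia genes *Mxi1* (-1.10), *Bnip3l* (-0.78) and *Egln3* (-0.59) and for *Pfkfb4* (-0.69), and for the falls of *Nwd1* (-0.99) and *Zfp945* (-0.78).

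The genes named for the size of this difference were *Trmt61a* (1.81), *Dctd* (1.79), *Plxdc1* (1.60), *Sco2* (1.47), *Srm* (1.42) and *Rrp12* (1.39) in the upward direction. In the downward direction they were *Pdcd4* (-1.34), *Pgbd1* (-1.30), *Tnfrsf14* (-1.26), *Ccng2* (-1.23) and *Ypel2* (-1.22). The adjusted p of the 34 ran from 2.57e-20 to 0.0482. Of these 34 genes 19 kept their call whichever of the 12 libraries was left out.

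The other 15 lost it without at least 1 library. Without GCSF 12h replicate 3 the difference was no longer called for *Mgarp* (-0.37), *Ddit4* (-0.32), *Bnip3* (-0.53), *Ndrg1* (-0.32), *Egln3* (-0.26), *Bnip3l* (-0.56), *Pgbd1* (-1.01), *Uhrf1* (0.56) and *Mcm2* (0.56). Without GCSF 8h replicate 1 it was no longer called for *Mgarp* (-0.43), *Ddit4* (-0.49), *Bnip3* (-0.66), *Ndrg1* (-0.38), *Egln3* (-0.40) and *Zfp945* (-0.70). Without IL3 8h replicate 1 it was -0.55 for *Mgarp*, -0.49 for *Ndrg1* and -0.48 for *Egln3*, and without IL3 12h replicate 1 it was -0.69, -0.56 and -0.52, none of them called. *Fam102a* and *Zfp945* each lost the call without any of 8 libraries, at 0.69 to 0.87 and -0.83 to -0.61, and *Ddit4* without any of 7, at -0.67 to -0.32. *Nwd1* lost it without any of 4 libraries (-0.90 to -0.85), *Mthfd1l* without any of 3 (0.53 to 0.55), *Dusp4* without GCSF 12h replicate 2 (0.80) or 8h replicate 2 (0.81) and *Cxcr2* without GCSF 12h replicate 2 (0.54). With the spread of the 4 groups alone 11 of the 34 were not called, with DESeq2 4 and with edgeR 3. Cytokine, OHT dose and pre-treatment cannot be told apart in these differences.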

How the results depend on the processing

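The numbers of genes that rose (391) and fell (74) were within 1.5 times under edgeR (360 and 89), DESeq2 (343 and 63), other pseudocounts, filters and upper-quartile scaling. With the 2 groups alone they were 112 and 48, and leaving out a library gave 245 to 502 and 49 to 94, with the lowest values without 12h replicate 2 and the highest without 12h replicate 3. From 12h to 16h, where 40 rose and 24 fell, the 2 groups alone gave 3 rises, DESeq2 gave 8 falls, edgeR 14 and no filter 38, and leaving out a library gave 17 to 51 rises and 7 to 28 falls, the lowest without 16h replicate 1. Counts between 4h and 16h, between 4h and 8h, in IL3 and for the difference between the conditions stayed within 1.5 times under every alternative. No result changed direction. Of 84 named genes, 45 lost their call with the 2 groups alone, 7 to 17 when a library was left out, 4 each with edgeR, DESeq2 and a pseudocount of 5, 3 without a filter and 1 with upper-quartile scaling. The cause was not tested. Alternatives for the list counts and for single genes in the difference from IL3 were chosen after seeing the data.

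The replicate numbers did not pair the samples: deviations of same-numbered 8h and 12h libraries correlated by 0.015, 0.028 and 0.046, under the 0.1 used to call a pairing. With the number as a replicate block 392 genes rose and 72 fell, 390 and 72 of them shared with the fit without it, and no named gene changed its call. Not every library correlated best with its own number.

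At these depths genes of few reads, such as *Csf1r*, *Mmp12*, *Fpr2* and *Cxcl10*, cannot give precise fold changes.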
